A study of Homo sapiens with 6 samples.

Results

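The 10 genes described here belong to the circadian clock and to the PAR-bZIP family with its antagonist: DBP, TEF, NFIL3, PER1, PER2, CRY1, CRY2, NR1D1, NR1D2 and CLOCK. They were taken by name from 13289 genes listed in either of 2 deposited count tables, and all 10 were listed in both tables and passed the filter on low counts. The set was chosen by the level of DBP, which differed between 2 hairpins in these libraries, so the difference between hairpins is given as a description, with no test. The cells were NB4, a human acute promyelocytic leukemia line in which all-trans retinoic acid (ATRA) induces granulocytic maturation. All libraries came from cells carrying a construct, either a control or 1 of 2 short hairpin RNAs (shRNA1 and shRNA2, here hairpin 1 and hairpin 2) directed at SMARCD2, which encodes a component of SWI/SNF (BAF) chromatin remodellers. Each construct was given ATRA at 1 µM (labelled differentiated) or the vehicle DMSO (labelled undifferentiated), which made 6 libraries, 1 control and 2 knockdown within each treatment. How long cells were treated, the hour of harvest and any synchronisation of the cells are not given in the sources used here.

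In the clock, CLOCK pairs with ARNTL (BMAL1) to activate genes through E-box sequences, among them the PER and CRY genes, whose proteins return to repress that pair. The same pair drives NR1D1 and NR1D2, nuclear receptors that repress ARNTL, and DBP, a PAR-bZIP activator. DBP and TEF bind D-box sequences as activators, while NFIL3 (E4BP4), a bZIP protein without the PAR domain, represses from the same sites. In blood cells NFIL3 is also known as a cytokine-responsive factor, so its level need not follow the clock.

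Library totals ran from 29291209 to 58099733 counts, each summed over 2 sequencing runs, and levels below are CPM, counts scaled to a common library total with TMM adjustment. SMARCD2, the targeted gene, measured 95.5, 39.0 and 25.7 CPM in DMSO for control, hairpin 1 and hairpin 2. The ATRA libraries gave 122, 64.2 and 35.6 CPM in the same order. The first marker list was for the promyelocyte and granulocyte lineage (MPO, ELANE, PRTN3, AZU1, CTSG, CD33, CEBPE and CEBPA). Of these 8, 8 were listed in DMSO and 7 in ATRA, where ELANE was not listed. Their summed levels were 10305 to 10536 CPM in DMSO and 5140 to 6833 CPM in ATRA. Of 4 monocyte markers, 3 were listed in DMSO, without CD14, and summed to 318 to 354 CPM, and 4 were listed in ATRA at 275 to 279 CPM. Of 4 lymphoid markers, 2 were listed in DMSO, without CD3E and MS4A1, and summed to at most 3.86 CPM. In ATRA 3 were listed, without MS4A1, and summed to at most 37.0 CPM. For each of these lists the sums in DMSO and in ATRA cover different genes. In bulk RNA, fewer cells of a type and less RNA per cell cannot be told apart.

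DBP was the highest of the 10 genes per length of transcript. In the control in DMSO it reached 41.1 CPM per kilobase of its longest annotated coding transcript. CRY1 followed at 10.4, NFIL3 at 9.63, PER2 at 7.36, NR1D1 at 4.67, PER1 at 4.27, CRY2 at 3.46, NR1D2 at 3.20, CLOCK at 3.12 and TEF at 1.22 on the same per-kilobase scale. In ATRA the level of NFIL3 came close to that of DBP in the control, at 18.8 against 22.1 CPM per kilobase. With hairpin 2 in ATRA the order of this pair was turned, with NFIL3 at 14.0 and DBP at 12.4. Neighbours such as NR1D2 and CLOCK exchanged places between libraries and were not separated.

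The comparison of ATRA with DMSO over the 3 constructs asked what the differentiation stimulus did to these genes, a contrast the choice of genes did not use. PER1, NR1D1, TEF, DBP, CRY1 and CRY2 fell, NFIL3 rose, and PER2, NR1D2 and CLOCK did not pass the test. The test was the quasi-likelihood F test of edgeR, with p adjusted by Benjamini-Hochberg over 12301 genes and called under 0.05. Over all genes 37.8% were called lower and 36.2% higher, 74% in all, so 6 lower and 1 higher of 10 has to be read beside a treatment that moved most genes. The median log2 fold change was -0.65 over the 10 genes and -0.01 over all genes.

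**Figure D1:**
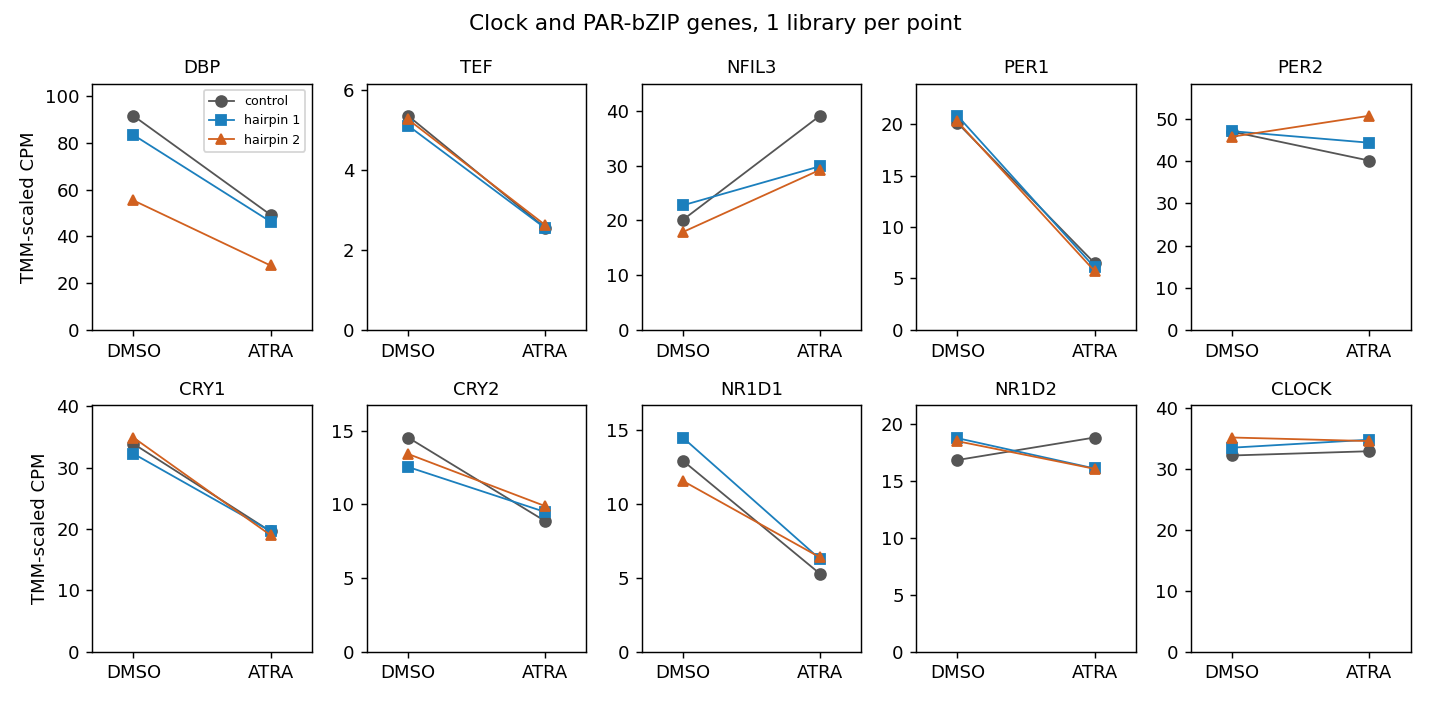
TMM-scaled CPM of each of the 10 genes in DMSO and ATRA, with 1 point per library and lines joining the libraries of a construct (grey circles control, blue squares hairpin 1, orange triangles hairpin 2). PER1 falls to about the same low level in all constructs, from 20.1 to 6.49 CPM in the control, and DBP with hairpin 2 lies below the other constructs in both treatments.

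Of the PAR-bZIP activators, DBP had DMSO levels of 91.5 CPM for the control construct, 83.3 for hairpin 1 and 55.4 for hairpin 2. In ATRA it stood at 49.2, 46.3 and 27.5 CPM, so that every ATRA library lay below every DMSO library. Such a gap downward, without overlap of the 3 libraries on each side, was found for 39.5% of all genes. The log2 fold change of DBP was -0.91 ± 0.20 (SE, n = 3 against 3; edgeR adjusted p = 0.0029). It was -0.90 within the control, -0.85 within hairpin 1 and -1.01 within hairpin 2. The error of the fit over constructs takes in the hairpin gap for which DBP was chosen. With the hairpin as a block the fit gave -0.92 ± 0.05. TEF, a weakly expressed relative, stood at 5.35, 5.11 and 5.26 CPM in DMSO and at 2.55, 2.54 and 2.62 CPM in ATRA (control, hairpin 1, hairpin 2). The constructs were almost level within each treatment, and TEF fell by 1.02 ± 0.13 on the log2 scale (edgeR adjusted p = 1.1e-04). Between 72 and 308 counts lay behind each TEF value.

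NFIL3, the repressor on the same D-box sites, moved the other way. It stood at 20.1, 22.8 and 17.9 CPM in DMSO and at 39.1, 29.9 and 29.2 CPM in ATRA. All ATRA libraries were above all DMSO libraries, as for 37.6% of all genes, and the ATRA control was the highest of the 6. Its log2 fold change was 0.67 ± 0.11 (edgeR adjusted p = 7.0e-04), made of 0.96 for the control construct, 0.39 for hairpin 1 and 0.71 for hairpin 2.

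PER1, a repressor of the CLOCK pair and an early responder to many stimuli, showed the largest change of the 10 genes. It stood at 20.1, 20.8 and 20.3 CPM in DMSO and at 6.49, 6.07 and 5.71 CPM in ATRA, a log2 fold change of -1.75 ± 0.09 (edgeR adjusted p = 3.4e-07). The mean in ATRA was 29.9% of that in DMSO, and the constructs lay close together on each side. PER2, its paralog, stood at 47.0, 47.1 and 45.8 CPM in DMSO and at 40.2, 44.4 and 50.8 CPM in ATRA. Its libraries overlapped, with a log2 fold change of -0.05 ± 0.08 (edgeR adjusted p = 0.57). The ATRA libraries of PER2 spread more widely than its DMSO libraries, with an SD of 5.36 against 0.725 CPM (n = 3 each).

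CRY1, a repressor that acts with the PER proteins, stood at 33.9, 32.3 and 34.9 CPM in DMSO and at 19.6, 19.6 and 19.0 CPM in ATRA. It fell by 0.79 ± 0.06 on the log2 scale (edgeR adjusted p = 6.0e-06), with no overlap of treatments. CRY2 stood at 14.5, 12.5 and 13.4 CPM in DMSO and at 8.86, 9.48 and 9.88 CPM in ATRA. Its decrease was smaller, with a log2 fold change of -0.51 ± 0.10 (edgeR adjusted p = 0.0014), and the treatments did not overlap either.

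NR1D1 (REV-ERB alpha) and NR1D2 (REV-ERB beta) differed in their ATRA response. NR1D1 stood at 12.9, 14.5 and 11.6 CPM in DMSO and at 5.28, 6.28 and 6.39 CPM in ATRA, a log2 fold change of -1.12 ± 0.12 (edgeR adjusted p = 4.2e-05). NR1D2 stood at 16.8, 18.7 and 18.5 CPM in DMSO and at 18.8, 16.1 and 16.0 CPM in ATRA, with a log2 fold change of -0.10 ± 0.09 (edgeR adjusted p = 0.37). The NR1D2 libraries of the treatments overlapped, and the difference between the paralogs was not tested. Exons of NR1D1 share 263 bases, 9.49% of its exon length, with THRA on the opposite strand in GENCODE 29, and the sources used here do not say whether counting used strand. THRA fell alongside, from 54.2 to 55.4 CPM in DMSO to 30.9 to 32.5 CPM in ATRA, and its part in the NR1D1 value was not tested.

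CLOCK, the activator, stood at 32.2, 33.5 and 35.1 CPM in DMSO and at 32.9, 34.8 and 34.6 CPM in ATRA. The libraries overlapped, with a log2 fold change of 0.02 ± 0.05 (edgeR adjusted p = 0.75). Scaling to total counts in place of TMM shifted the all-gene median by -0.13, with 3637 genes higher and 5722 lower against 4450 and 4650. With that scaling the 6 decreases and the increase of NFIL3 were still called, CLOCK turned to -0.11, and NR1D2 passed at -0.22 (edgeR adjusted p = 0.048).

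A list of 21 other clock genes was examined beside these, of which 15 were in both tables. Of the 15, 7 rose and 5 fell in ATRA, with a median log2 fold change of -0.01. BHLHE40 and BHLHE41 (DEC1 and DEC2), E-box repressors of the clock, rose by 1.73 ± 0.16 and 1.32 ± 0.17 on the log2 scale (edgeR adjusted p = 1.9e-05 and 1.3e-04). BHLHE40 stood at 11.3, 15.5 and 14.3 CPM in DMSO and at 58.7, 40.6 and 40.4 CPM in ATRA. ARNTL, the partner of CLOCK and a target of NR1D1 repression, rose by 0.78 ± 0.13 (edgeR adjusted p = 7.3e-04), from 7.72, 5.57 and 5.54 CPM to 10.1, 10.7 and 11.1 CPM. USP2, a deubiquitinase with a clock-driven transcript, had a log2 fold change of -1.88 ± 0.30 (edgeR adjusted p = 5.1e-04) on 11 to 96 counts per library. NPAS2, a paralog of CLOCK, had -0.98 ± 0.30 (edgeR adjusted p = 0.016) on 7 to 52 counts. NPAS2 lost its call in 4 settings, with an adjusted p of 0.062 without the control in DMSO, 0.059 without the control in ATRA, 0.056 without hairpin 2 in DMSO and 0.062 from run 1 alone. HLF, the remaining PAR-bZIP gene, was listed in neither table.

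**Figure D2:**
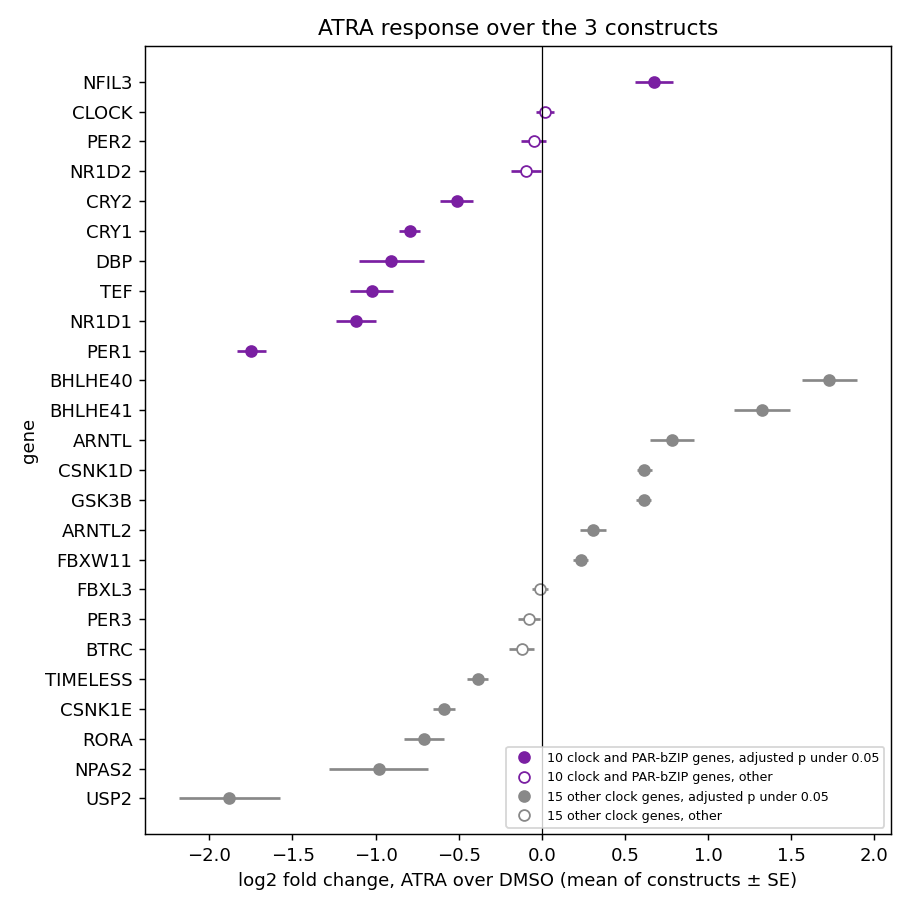
Log2 fold change of ATRA over DMSO with its standard error for the 10 clock and PAR-bZIP genes (purple) and 15 other clock genes (grey), where filled points passed at an adjusted p under 0.05. PER1 at -1.75 is the lowest of the 10 and NFIL3 at 0.67 the highest, while BHLHE40 at 1.73 leads the others.

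The 250 bases before each annotated start were searched on both strands for short motifs. These were the E-box CACGTG, its variant CACGTT, the D-box forms TTATGTAA and TTACGTAA, and the ROR and REV-ERB element core TAGGTCA. The genes were taken by name as clock genes, which include known E-box targets, so the shares below were not tested. RefSeq promoters on GRCh38.p14 matched all 10 genes with 15 start sites. CACGTG was in 4 of these 15 windows against 6.34% of 35116 windows of all genes, and CACGTT in 5 of 15 against 4.55%. TAGGTCA was in 2 of 15, those of CRY2 and NFIL3, against 1.61% of all windows. The PER1 window held CACGTG 173 bases before the start and both TEF windows held it, at 195 and 193 bases. One NR1D2 window held it 2 times, at 155 and 105 bases, with TTATGTAA, a motif in 0.834% of all windows, at 194 bases. TTACGTAA was in no window of the 10 genes and in 0.105% of all. The DBP window held none of these letters, which says nothing of sites elsewhere in the gene. Stretches from 220 to 96 bases before the start are shown for PER1 and TEF, which fell and hold the E-box, for NR1D2, which holds 2 and did not pass the test, and for DBP, which fell and holds none. Capitals mark motif matches, read 5′ to 3′ on the gene's strand.
PER1, GRCh38.p14 chr17:8152500-8152624, minus strand: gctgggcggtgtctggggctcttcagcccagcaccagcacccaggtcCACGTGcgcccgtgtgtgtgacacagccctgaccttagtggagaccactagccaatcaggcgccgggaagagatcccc
TEF, GRCh38.p14 chr22:41381722-41381846, plus strand: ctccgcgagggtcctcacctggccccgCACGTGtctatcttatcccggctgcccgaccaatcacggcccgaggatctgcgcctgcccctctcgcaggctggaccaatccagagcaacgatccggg
NR1D2, GRCh38.p14 chr3:23945901-23946025, plus strand: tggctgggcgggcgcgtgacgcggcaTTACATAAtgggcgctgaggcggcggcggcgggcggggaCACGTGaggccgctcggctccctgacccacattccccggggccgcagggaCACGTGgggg
DBP, GRCh38.p14 chr19:48637475-48637599, minus strand: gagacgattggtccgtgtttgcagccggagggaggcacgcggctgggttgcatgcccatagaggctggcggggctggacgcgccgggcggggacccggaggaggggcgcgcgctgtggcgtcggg
CACGTG was thus found for 2 of the 6 genes that fell and for 1 of the 3 that did not pass. The variant CACGTT was found for CRY1, CRY2 and NR1D1, which fell, and for PER2 and CLOCK, which did not pass. No annotated exon of any gene in GENCODE 29 lies in these 4 stretches.

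Between the hairpins, the contrast used to choose the set, DBP had the widest gap of the 10 genes. Its level with hairpin 2 was 66.4% of that with hairpin 1 in DMSO and 59.5% in ATRA, log2 ratios of -0.59 and -0.75. Against the control, hairpin 1 stood at -0.14 in DMSO and -0.09 in ATRA, and hairpin 2 at -0.73 and -0.84. These are sums over runs, and in run 2 alone hairpin 1 stood further below the control, at -0.29 and -0.31, against -0.19 and -0.06 in run 1. In each run and treatment DBP was lower with hairpin 2 than with hairpin 1. SMARCD2 had log2 ratios of hairpin 2 to hairpin 1 of -0.60 in DMSO and -0.85 in ATRA, and with hairpin 1 it stood at -1.29 and -0.93 against the control. The part of the SMARCD2 level in the DBP values was not tested. For scale, the median absolute log2 ratio between hairpins over 9467 genes averaging 10 CPM or more was 0.07 in each treatment, with 95% of genes under 0.29 in DMSO and 0.27 in ATRA. Across all 12300 genes tested for this contrast, 2.03% were called, 1.3% higher and 0.732% lower with hairpin 2.

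The other 9 genes lay closer together. NFIL3 and NR1D1 were lower with hairpin 2 than with hairpin 1 in DMSO, at log2 ratios of -0.35 and -0.33, but stood at -0.03 and 0.03 in ATRA. PER2 was higher with hairpin 2 in ATRA, at 0.19, and stood at -0.04 in DMSO. The ratios of TEF, PER1, CRY1, CRY2, NR1D2 and CLOCK lay between -0.09 and 0.11 in both treatments.

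**Figure D3:**
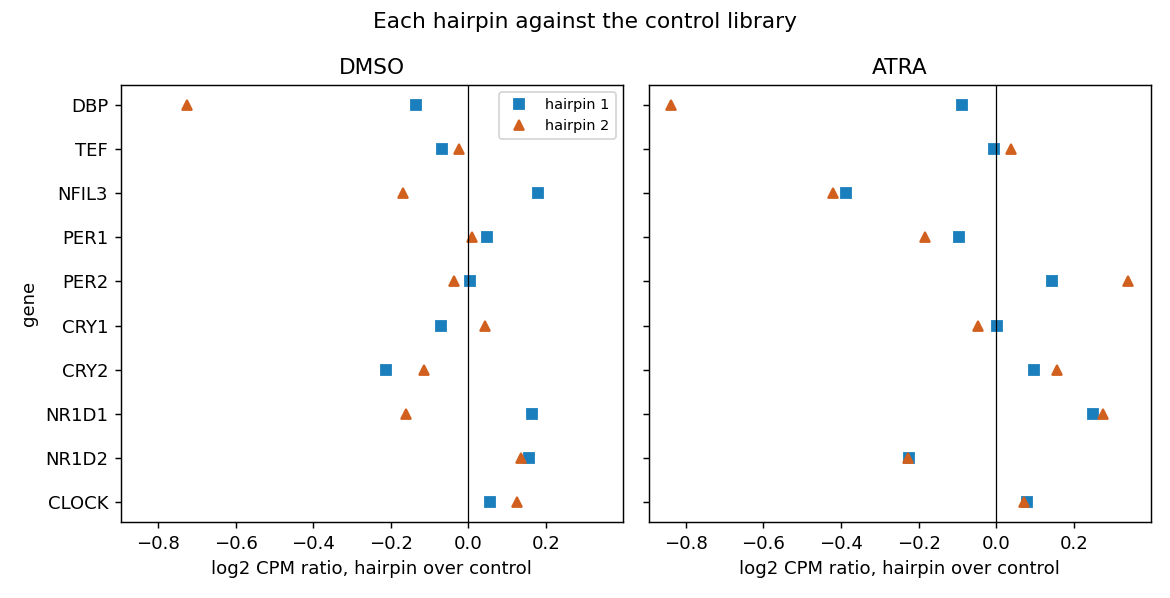
Log2 ratio of CPM in each hairpin library to the control library of the same treatment for the 10 genes (blue squares hairpin 1, orange triangles hairpin 2), in DMSO on the left and ATRA on the right. DBP with hairpin 2 stands apart at -0.73 and -0.84, and both hairpins lie at -0.23 for NR1D2 in ATRA.

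The sequencing runs cover the same 6 libraries, and their sums are the values by which DBP was chosen. Their order of constructs is therefore no independent support for a gap between hairpins. Both runs gave the same order of constructs for DBP. In run 1 it stood at 99.9, 87.4 and 58.2 CPM in DMSO and at 50.9, 48.9 and 28.9 CPM in ATRA (control, hairpin 1, hairpin 2). In run 2 the values were 81.1, 66.1 and 48.5 CPM in DMSO and 47.3, 38.2 and 24.3 CPM in ATRA. DBP was lower in run 2 in 6 of 6 libraries, at 75.7% to 93.0% of its run 1 level. Of 9467 genes, 19.0% were lower in run 2 in 6 of 6 libraries by any amount. A mean log2 ratio of run 2 to run 1 at or below that of DBP was found for 3.91%. Run 1 supplied 54.6% and 53.1% of counts in the control libraries but 70.6% to 80.7% in the knockdown libraries, so the run mix moves with knockdown. Within single runs the log2 ratio of hairpin 2 to hairpin 1 was -0.59 and -0.76 in run 1 (DMSO, ATRA) and -0.45 and -0.66 in run 2.

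**Figure D4:**
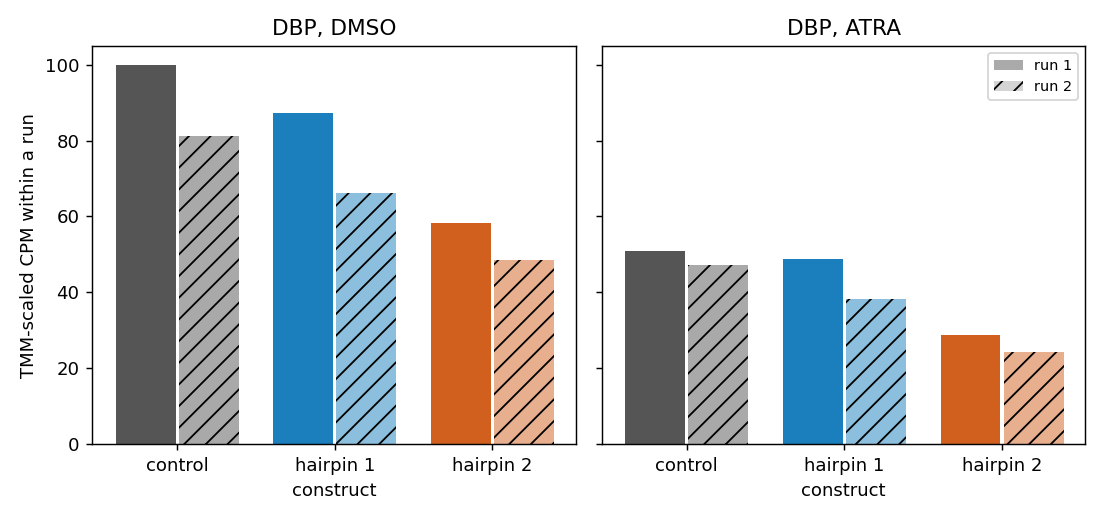
DBP in each library by sequencing run, in TMM-scaled CPM within a run (solid bars run 1, hatched bars run 2), for DMSO on the left and ATRA on the right. Every library is lower in run 2, and hairpin 2 is the lowest construct in both runs, at 58.2 and 48.5 CPM in DMSO.

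Exons of DBP share 661 bases, 10.1% of their joined length, with SPHK2 on the opposite strand, whose reads could be counted with it if strand was not used. SPHK2 stood at 90.1, 87.4 and 79.8 CPM in DMSO and at 106, 113 and 117 CPM in ATRA, and with hairpin 2 it stood at 91.2% of hairpin 1 in DMSO and 104% in ATRA. The part of SPHK2 reads in the DBP values was not tested. Of 9466 other genes averaging 10 CPM or more, the 5 whose log2 CPM followed DBP most closely over the 6 libraries were HACE1 (r = 0.99), NPL (0.99), MOSPD3 (0.99), GTF3A (0.99) and ATP5C1 (0.99). Their range was narrower: HACE1, a ubiquitin ligase gene, ran from 44.4 CPM in the control in DMSO to 36.3 CPM with hairpin 2 in ATRA. NPL ran from 14.0 to 8.40 CPM between the same libraries. Within the set, PER1 had r = 0.82 with DBP, CRY1 0.79, CRY2 0.72 and NR1D2 0.45. CLOCK had -0.60, NFIL3 -0.54 and PER2 -0.15. TEF and NR1D1 averaged under 10 CPM and were not compared. These values describe 6 libraries that share the split by treatment.

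Knockdown against control asked what partial loss of SMARCD2 did to these genes within a treatment. In the fit by group, none of the 10 passed in either treatment with edgeR or DESeq2, and the largest differences were the lower DBP in both treatments and the lower NFIL3 in ATRA. The edgeR test called 0 of 12301 genes in DMSO and 1 in ATRA (0.00813%), so 0 of 10 says little about the set. At an unadjusted p under 0.05 by edgeR, 0 of the 10 stood out in DMSO, beside 868 of all genes, and 2 in ATRA, beside 1329. The log2 fold change of DBP was -0.40 ± 0.29 in DMSO (SE, n = 2 against 1; edgeR adjusted p = 0.81) and -0.41 ± 0.31 in ATRA (edgeR adjusted p = 0.66). DBP was chosen for the spread between hairpins, which also sets the error of this test. From run 1 alone DBP stood at -0.45 in DMSO and -0.38 in ATRA, and from run 2 alone at -0.51 and -0.60. The summed DMSO value was thus smaller in size than that of either run, and the part of the run mix was not tested. The targeted gene SMARCD2 was itself not called, at -1.55 ± 0.32 in DMSO and -1.29 ± 0.31 in ATRA.

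In DMSO the other 9 genes lay between -0.16 ± 0.13 for CRY2 and 0.15 ± 0.11 for NR1D2. In ATRA, NFIL3 had a log2 fold change of -0.40 ± 0.14 (edgeR adjusted p = 0.39), with the control at 39.1 CPM and both hairpins near 29.9 and 29.2 CPM. The authors' deposited table for ATRA lists NFIL3 at -0.34 with an adjusted p of 0.0035. For DBP the authors' deposited tables list -0.15 in DMSO and -0.16 in ATRA, with adjusted p of 0.656 and 0.521, and for the other 8 genes adjusted p of at least 0.156. For SMARCD2 the deposited tables list -0.96 in DMSO and -0.40 in ATRA, where the fit here gave -1.55 and -1.29. The deposited fold changes therefore cannot be compared in size with those given here, and the reason was not tested. Whether the authors' test treated the runs as replicates is not stated in the sources used here. PER2 stood at 0.24 ± 0.10 in ATRA (edgeR adjusted p = 0.43), higher than the control with both hairpins. NR1D1 stood at 0.26 ± 0.20, CRY2 at 0.13 ± 0.14, CLOCK at 0.08 ± 0.08, TEF at 0.02 ± 0.23, CRY1 at -0.02 ± 0.10, PER1 at -0.14 ± 0.14 and NR1D2 at -0.23 ± 0.11. NR1D1 in ATRA rested on run 1, with 0.26 over both runs and -0.02 from run 2 alone.

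The difference in ATRA response between knockdown and control was tested as an interaction, and 6 of 12301 genes (0.0488%) were called, all lower and none of the 10. NFIL3 rose less with knockdown than in the control by -0.42 ± 0.20 on the log2 scale, which did not pass (edgeR adjusted p = 0.66). NR1D2 had -0.37 ± 0.15 (edgeR adjusted p = 0.60), the only one of the 10 with an unadjusted p under 0.05. Both hairpin libraries of NR1D2 lay above the control in DMSO, at 0.16 and 0.14 on the log2 scale, and below it in ATRA, at -0.23 and -0.23. CRY2 showed the opposite order, with -0.21 and -0.12 in DMSO and 0.10 and 0.16 in ATRA, and an interaction of 0.29 ± 0.20 (edgeR adjusted p = 0.73). For DBP the interaction was -0.01 ± 0.43 (edgeR adjusted p = 0.99). PER2 had 0.26 ± 0.14, NR1D1 0.25 ± 0.26 and PER1 -0.17 ± 0.19, and TEF, CRY1 and CLOCK lay between -0.02 and 0.06.

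Of the other clock genes, BHLHE40 came nearest to the threshold for this interaction, at -0.94 ± 0.13 (edgeR adjusted p = 0.094; DESeq2 adjusted p = 0.0089). Within ATRA, BHLHE40 stood at -0.53 ± 0.09 and BHLHE41 at -0.72 ± 0.14 with knockdown (edgeR adjusted p = 0.17 and 0.26). Within DMSO, BHLHE40 stood at 0.40 ± 0.10 and BHLHE41 at 0.15 ± 0.16 with knockdown. For BHLHE40 the lone DMSO control had 11.3 CPM against 15.5 and 14.3 CPM with the hairpins, so both treatments enter its interaction. BHLHE41 had 21.9 CPM in the ATRA control against 14.1 and 12.4 CPM with the hairpins. The authors' deposited table for ATRA lists them at -0.45 and -0.56, with adjusted p of 2.9e-06 and 4.6e-06.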

How the data were processed

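RNA-seq counts of 6 NB4 libraries were used. The submitters' processing notes name STAR, Picard 2.5.0, bcl2fastq, DESeq2 and the build GRCh37.p13 without their roles, and no source used here states the read counting method. Raw counts per gene were deposited by the authors, 12752 genes for DMSO and 12838 for ATRA, with 2 columns per library, taken as sequencing runs from the series description, and summed. Both tables also hold the authors' deposited log2 fold change and adjusted p-value for knockdown. Their 12 columns of normalized values were left out.

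Genes in both tables (12301) were filtered with filterByExpr, scaled by TMM with full table totals as library sizes, and tested with edgeR 4.0.16 (quasi-likelihood, Benjamini-Hochberg) in R 4.3.3. The ATRA fit had knockdown state and treatment as terms (3 residual degrees of freedom). The knockdown and interaction fits had 4 groups (2 residual degrees of freedom), so each lone control is taken to vary as the knockdown libraries do. Standard errors are the log2 fold change over the root of F. The fits were tested on simulated data. Likeness to DBP is Pearson's r of log2 CPM (prior count 1). Alternatives used DESeq2 1.42.0, other scalings, no filter, single runs, a hairpin term and each library left out. Lengths and overlaps are from GENCODE 29, since no GRCh37 annotation was used here. Nothing says that libraries came from separate cultures, so p-values reflect only how much these libraries vary, which may be technical.

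Named genes were the 10 members, SMARCD2, and of a list of other clock genes those with the 4 largest changes called under ATRA, plus ARNTL and HLF. BHLHE40 and BHLHE41 under knockdown, SPHK2 and THRA were added after their values were seen. One further marker list, of the 4 examined, is not reported here. The members and lists were chosen with earlier results of these data known.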

Additional observations from a re-analysis of the deposited data

How the results depend on the processing

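Over 13 alternatives each, the 6 decreases and the increase of NFIL3 in ATRA kept direction and call, with DBP between -1.14 and -0.71 (highest adjusted p 0.015, without hairpin 1 in DMSO). The mean log2 ratio of DBP between hairpins was -0.67 ± 0.11 (SD of DMSO and ATRA) and -0.55 from run 2 alone. The filter removed no gene from the ATRA, knockdown and interaction fits, so leaving it off changed nothing there. Dropping a control library leaves no knockdown comparison in that treatment.

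The hairpin numbers share a construct, but the labels do not say that they share cells. Deviations of a construct in DMSO and ATRA correlated at r = 0.078 (control), 0.185 (hairpin 1) and 0.210 (hairpin 2) over 9467 genes, so the numbers were not taken as pairs. With the hairpin as a block, members called lower with knockdown went from 0 to 1 in DMSO and from 0 to 1 in ATRA. That gene was DBP, at -0.43 (adjusted p = 0.010) and -0.46 (adjusted p = 0.0073), in a fit whose error leaves out the hairpin gap. The block gave 85 higher and 31 lower genes in DMSO, 149 and 199 in ATRA and 16 and 113 for the interaction, against 0 and 0, 0 and 1, and 0 and 6. It also called BHLHE40 (adjusted p = 0.0045) and BHLHE41 (0.0074) lower in ATRA and BHLHE40 (0.0034) in the interaction. DESeq2 called 32 and 6 genes in DMSO, 17 and 35 in ATRA and 1 and 47 for the interaction. Run 2 alone called 2 and 1 in DMSO and 0 and 7 in ATRA. Leaving out hairpin 1 in DMSO gave 20 higher and 1 lower there, leaving out either ATRA knockdown library gave 0 in ATRA, and leaving out any knockdown library cut the interaction to between 1 and 2 lower genes.

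Signs turned only for values that did not pass in the fits above, and the cause was not tested. Some values below kept their sign and are given for scale. For ATRA this was PER2 at -0.13. For knockdown in DMSO these were NFIL3 at 0.19, CRY1 at -0.063, NR1D1 at 0.17 and PER2 at -0.023. For the interaction they were DBP at -0.44, CRY1 at -0.081 and CLOCK at -0.068. For ATRA, PER2 was 0.037 without the control in DMSO, 0.033 without that in ATRA and -0.13 without hairpin 2 in ATRA, NR1D2 0.021 from run 2, and CLOCK -0.11 with total counts. For knockdown in DMSO, run 1 gave TEF 0.034, PER1 -0.031 and PER2 0.0096, and run 2 gave CRY1 0.044 and NR1D1 -0.043. Without hairpin 1 and without hairpin 2 in DMSO, NFIL3 was -0.15 and 0.19, CRY1 0.057 and -0.063, NR1D1 -0.15 and 0.17, and PER2 -0.023 and 0.011. In ATRA, run 2 gave TEF -0.30 and NR1D1 -0.017, and TEF was -0.0094 without hairpin 2. For the interaction, DBP was 0.069 from run 1, 0.30 without hairpin 1 in DMSO, 0.29 without hairpin 2 in ATRA and -0.44 without hairpin 1 in ATRA. CRY1 was 0.0054 with total counts, 0.022 from run 1, 0.039 without hairpin 2 in DMSO, 0.0030 without it in ATRA and -0.081 without hairpin 1 in DMSO. TEF was -0.16 and CLOCK 0.11 from run 2, and CLOCK was 0.0093 without hairpin 2 and -0.068 without hairpin 1 in DMSO. TEF, on 72 to 308 counts, and USP2 and NPAS2, on fewer than 100, had the fewest counts.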
